A study of Mus musculus with 48 samples.

Results

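The enzymes that build fatty acids from acetyl units and then lengthen and desaturate them, together with a transcription factor that controls them, were followed in cultured muscle cells under cyclic stretching. The genes were listed by name for their function, and the rule used no measured value. The list was made with earlier results of these data known, so the counts below are not independent of those results. The genes are Acss2, Acly, Acaca, Fasn, Elovl6, Scd1, Scd2, Fads1, Fads2 and Srebf1. These are 10 of the 47480 gene symbols counted, and all 10 passed the filter on low counts in every comparison. The cells were C2C12, an established line of mouse myoblasts that fuse into multinucleated myotubes when serum is reduced, and so a model of muscle in culture that holds a single cell lineage without nerve, vessels or fat. They were grown on collagen-coated flexible plates and deformed equally in all directions, in cycles, by a Flexcell device, which ran for 1 h, for 3 h or for 6 h, either as proliferating myoblasts in fetal bovine serum or after 4 days of differentiation in horse serum. Non-stretched cells of the same stage were kept on the same kind of plate and collected at each of the 3 times, which gives 12 groups of 4 libraries, and no group carried a drug or a genetic change. Each stage came from 2 experiments of its own, with replicates 7 and 8 from the first and replicates 9 and 10 from the second, except that the stretched differentiated group at 1 h holds replicates 4, 7, 8 and 9, with replicate 4 the only library of its experiment. The p-values measure the spread between these 4 libraries per group, in which differences within and between experiments are mixed. They do not take the experiment as the unit. They treat the libraries as independent, although most share an experiment with another library of their group, and the main fit has no term for it.

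Cytosolic acetyl-CoA, the building block of fatty acids, is made from citrate by Acly and from acetate by Acss2. Acaca carboxylates it to malonyl-CoA, Fasn joins these units into palmitate, Elovl6 lengthens palmitate to stearate, and the desaturases Scd1 and Scd2 place the first double bond, while Fads1 and Fads2 act on the polyunsaturated fatty acids taken up from the diet or medium. Srebf1 encodes SREBP-1, a factor held in the endoplasmic reticulum membrane until it is cut and enters the nucleus, where it acts on most of these genes, as its relative SREBP-2 does on the genes of cholesterol synthesis.

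The promoters of Fasn, Acly and Acss2 are shown because the first pair of genes changed with stretching at 6 h in both stages, as given below, and the last did not. The stretches come from the RefSeq promoter table of GRCm38.p6, the same build as mm10, read 5′ to 3′ along the gene, with capitals for the CCAAT box (CCAAT, or ATTGG on the other strand) and the GC box (GGGCGG, or CCGCCC on the other strand), the sites of NF-Y and Sp1, factors known to work with SREBPs. Positions count from the start that the RefSeq promoter table gives, which for some genes differs from the start of the gene coordinates given below. The Acss2 coordinates below start at 155517948, so part of the Acss2 stretch shown lies within the gene as given there.
Fasn, chr11:120824578-120824667, - strand, from -120 to -31: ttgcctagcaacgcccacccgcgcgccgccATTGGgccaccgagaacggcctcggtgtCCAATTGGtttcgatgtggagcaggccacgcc
Acly, chr11:100528011-100528130, - strand, from -130 to -11: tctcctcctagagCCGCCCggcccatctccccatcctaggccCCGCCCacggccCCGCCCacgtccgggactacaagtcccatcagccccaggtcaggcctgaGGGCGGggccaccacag
Acss2, chr2:155517893-155518012, + strand, from -150 to -31: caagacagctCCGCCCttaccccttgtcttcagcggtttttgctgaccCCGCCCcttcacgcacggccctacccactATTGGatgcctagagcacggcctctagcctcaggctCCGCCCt

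The Fasn stretch held 3 CCAAT boxes, of which the last pair overlap, and no GC box. In the Acly promoter, 4 GC boxes lay upstream of the start and 1 CCAAT box lay downstream of it, outside the stretch shown. The whole 300-base promoter of Acss2 held 5 GC boxes and 1 CCAAT box. Over all 32851 promoters of the table, 37.4% held a CCAAT box and 35.7% a GC box, so that either is common. The sterol regulatory element was searched as TCACCCCAC, found in 0.551% of all promoters, and as its shorter core CACCCCA, found in 7.62%, and the E-box as CACGTG, found in 7.15%. None of these, on either strand, was in the 300 bases (250 before and 50 after the start) of the 7 genes that the table covers, namely Acly, Acaca, Fasn, Acss2, Elovl6, Fads2 and Srebf1, the last with 3 starts. Elovl6 and Acaca held none of the 5 motifs, and Fads2 held 1 GC box. The Acaca window, chr11:84195188-84195487, lies inside the gene, whose coordinates start at 84129672, so the bases before that start were not searched. The Fads2 window, chr19:10101454-10101753 on the - strand, lies mostly inside the gene, whose coordinates end at 10101746. A match or its absence describes the letters of this window only.

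Without stretching, the desaturase Scd2 was the most abundant of these transcripts in both stages and Acss2 the least. Levels were set side by side per length, as CPM (the usual scaling of counts to a common library size, here with TMM factors) per kilobase of the principal transcript, over the 12 non-stretched libraries of a stage. Scd2 was at 235 ± 21.9 CPM per kb (SD, n = 12) in myoblasts and at 429 ± 49.5 in differentiated cells. Scd1 followed at 71.2 ± 5.37 and 172 ± 11.4 CPM per kb. The next in order was Acly, with 59.5 ± 2.02 in myoblasts and 56.6 ± 3.97 in differentiated cells. The ranges of Scd1 and Acly overlapped in myoblasts but not in differentiated cells. Fasn was at 46.05 ± 4.29 and 36.5 ± 4.06 CPM per kb, and its range overlapped that of Fads1 in both stages. Srebf1 and Fads2 could not be ordered, since their ranges overlapped in both stages, and neither could Acaca and Elovl6. Acss2 stood below all others, at 1.69 ± 0.142 CPM per kb in myoblasts and 5.54 ± 0.526 in differentiated cells.

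**Figure D1:**
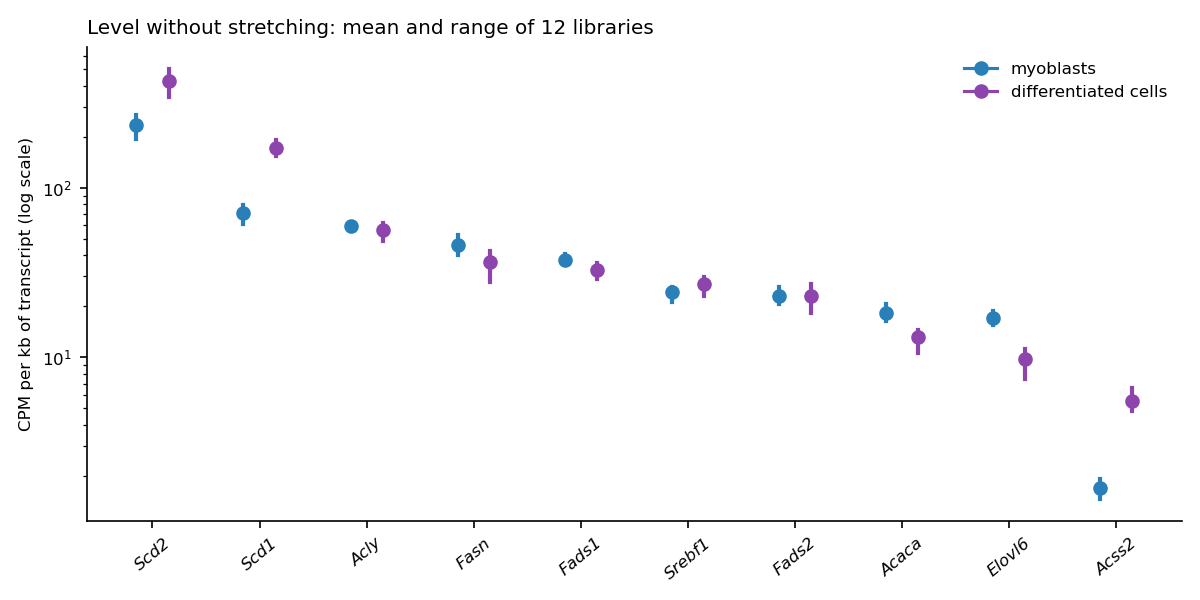
Level of each gene without stretching, as CPM per kilobase of transcript on a log scale, with the mean (point) and the range (line) of 12 libraries of myoblasts (blue) and of differentiated cells (purple). Scd2 lies highest in both stages, and the ranges of Scd1, Scd2, Acss2, Acaca and Elovl6 do not overlap between the stages.

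Between the non-stretched stages, 8 of the 10 genes differed, 4 in each direction, with edgeR's quasi-likelihood test at a Benjamini-Hochberg adjusted p under 0.05, on a background in which 45% of the genes tested were higher and 44.4% lower in differentiated cells. Acss2 was higher in differentiated cells, by a log2 difference of 1.73 ± 0.048, adjusted p = 2.33e-22, as were Scd1 (1.29 ± 0.031, adjusted p = 7.68e-24), Scd2 (0.89 ± 0.048, adjusted p = 7.29e-16) and Srebf1 (0.17 ± 0.041, adjusted p = 0.000500). Lower in differentiated cells were Elovl6 (-0.78 ± 0.053, adjusted p = 1.71e-13), Acaca (-0.46 ± 0.033, adjusted p = 3.91e-13), Fasn (-0.32 ± 0.049, adjusted p = 1.22e-06) and Fads1 (-0.17 ± 0.034, adjusted p = 5.00e-05). Acly (-0.05 ± 0.026, adjusted p = 0.0622) and Fads2 (0.03 ± 0.051, adjusted p = 0.593) did not pass the test. Stage, serum, plating and experiment go together here and cannot be told apart, and in bulk RNA fewer cells with a transcript and less of it per cell cannot be told apart either.

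The libraries held between 48447318 and 77080730 counts, of RNA that the labels call nuclear and the methods describe as extracted from cells. Of 10 muscle markers, 9 were tested between the non-stretched stages, with 8 higher and 1 lower in differentiated cells. The levels of single markers given here are over all 24 libraries of a stage, stretched and non-stretched. Acta1, the actin of skeletal muscle fibres, was at 4.32 ± 1.07 CPM (SD, n = 24) in myoblasts and at 4286 ± 310 CPM in differentiated cells. Muscle creatine kinase, Ckm, was at 0.0586 ± 0.0540 and 320 ± 31.3 CPM. The exception was Myf5, a factor of early muscle cells, with 47.97 ± 9.93 CPM among myoblasts and 22.2 ± 4.38 CPM after differentiation. With stretching at 6 h, Myf5 was higher in myoblasts (0.40 ± 0.062, adjusted p = 0.00108) and in differentiated cells (0.51 ± 0.059, adjusted p = 0.000561), and in myoblasts Myog (-0.54 ± 0.17, adjusted p = 0.0356), the factor of differentiation, and Des (-0.11 ± 0.034, adjusted p = 0.0279), the muscle intermediate filament, were lower. Myog was scarce in myoblasts, at 1.23 ± 0.785 CPM (SD, n = 24) with 19 to 178 counts in a library, against 847 CPM in differentiated cells. The summed level of the muscle markers at 6 h was between 898 and 976 CPM in stretched and between 939 and 1010 CPM in non-stretched myoblasts, and between 14060 and 15310 CPM in stretched and between 15180 and 15820 CPM in non-stretched differentiated cells. Among 10 adipocyte markers, 8, with Adipoq, Plin1, Cidec and Cfd among them, stayed at or below 0.157 CPM in every library, and only Pparg and Cebpa were measurable. The summed level of the 10 was between 21.5 and 22.9 CPM in the stretched differentiated libraries at 6 h and between 25.1 and 29.0 CPM in the non-stretched ones, with Cebpa lower at 6 h in myoblasts (-0.58 ± 0.093, adjusted p = 0.00123) and in differentiated cells (-0.38 ± 0.062, adjusted p = 0.00255). Pparg, the other adipocyte marker tested, was not called at 6 h in either stage. Its log2 fold change was positive in myoblasts and negative in differentiated cells. In myoblasts at 6 h the sum was between 21.1 and 22.4 CPM with and between 21.6 and 25.2 CPM without stretching, and the part of either marker list in the results below was not tested. Of 5 genes known to respond early to mechanical stretch (Fos, Egr1, Dusp1, Cyr61 and Ctgf), 5 were higher at 1 h in myoblasts and 3 in differentiated cells.

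With stretching, few of these genes were called at 1 h, and at 6 h the same 6 were higher in both stages. The test was edgeR's, over the 8 libraries of a time, and a gene was called at an adjusted p under 0.05. In myoblasts at 1 h, 1 of the 10 was lower and 0 higher, where 4.24% and 1.67% of all genes tested were. At 3 h, 3 were lower and 0 higher in myoblasts, against 15.8% and 16% of all genes. At 6 h, 6 were higher and 0 lower, against 14.1% and 13%. Differentiated cells had 0 called in either direction at 1 h, when 0.193% of all genes were higher and 0.47% lower, and none of the 10 had an unadjusted p under 0.05 there or was called by DESeq2. By 3 h, 3 were higher and 0 lower in these cells (10.8% and 11.4% of all genes), and by 6 h again 6 were higher and 0 lower (11.5% and 10.8%). The 6 genes higher at 6 h were Acly, Fasn, Elovl6, Scd1, Scd2 and Fads2.

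Most of these changes were small. The further limit that the study set, a log2 fold change no nearer to 0 than 0.58, was met by 1 gene in myoblasts at 6 h (Fasn) and by 1 in differentiated cells at 6 h (Elovl6). Over all genes tested, the share past both limits was 1.25%, 1.71% and 2.17% in myoblasts at 1, 3 and 6 h, and 0.27%, 1.63% and 2.04% in differentiated cells. The median log2 fold change of the 10 genes was -0.07, -0.04 and 0.17 in myoblasts at 1, 3 and 6 h, and 0.02, 0.12 and 0.25 in differentiated cells, beside medians of all genes tested between -0.01 and 0.00. The stretched and non-stretched libraries did not overlap for 1, 2 and 5 of the 10 genes in myoblasts at 1 h, 3 h and 6 h, beside 13.5%, 31% and 29.3% of all genes. For differentiated cells, this held for 0, 3 and 6 of the 10, beside 6.44%, 26.1% and 26.4%.

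**Figure D2:**
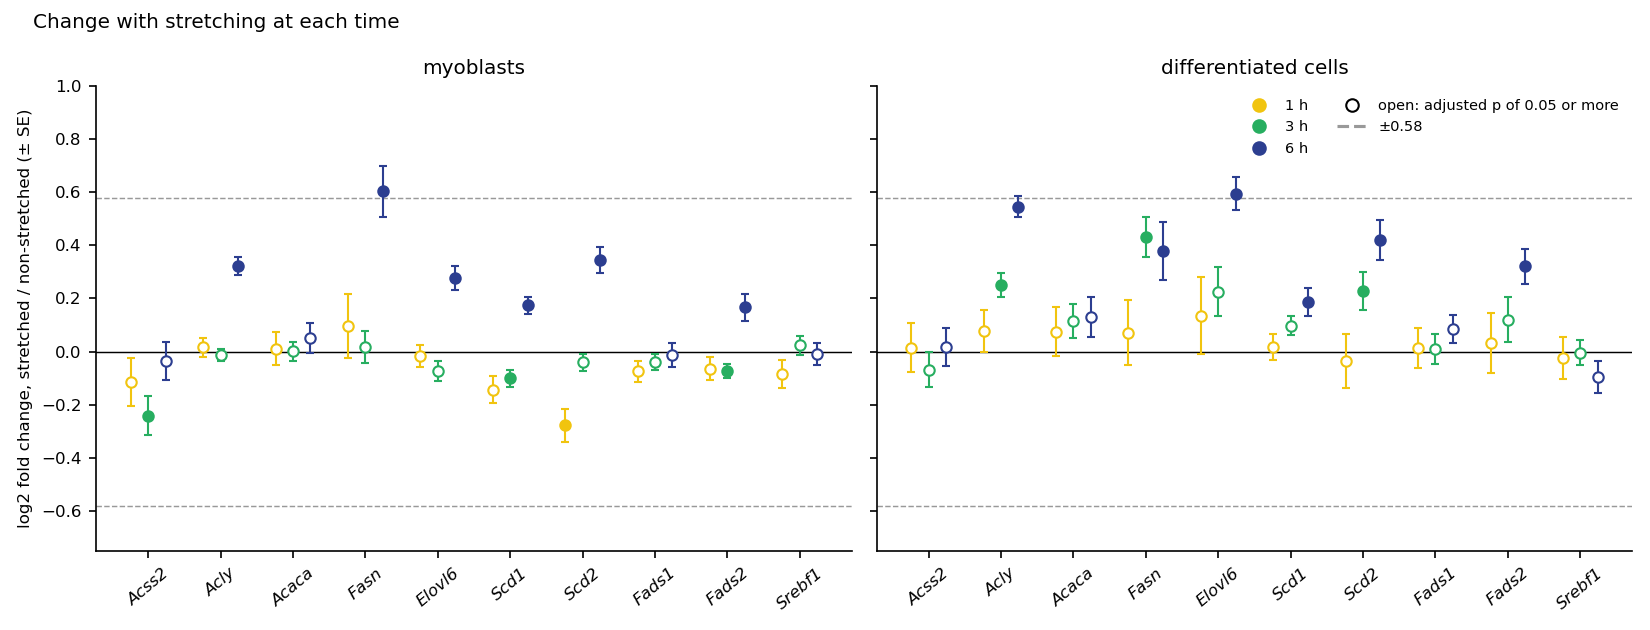
Log2 fold change of stretched over non-stretched cells (± SE of the fit, n = 4 against 4) for each gene at 1 h (yellow), 3 h (green) and 6 h (blue), in myoblasts (left) and differentiated cells (right). Filled points have an adjusted p under 0.05, and dashed lines mark a log2 fold change of 0.58 either way. At 6 h the same 6 genes are filled and above 0 in both panels, while Acss2, Acaca, Fads1 and Srebf1 are open.

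Acly (chr11:100476353-100528000, - strand on mm10), the ATP citrate lyase that turns exported citrate into acetyl-CoA, rose at 6 h in both stages. In myoblasts at 6 h the non-stretched libraries (replicates 7, 8, 9 and 10, in this order here and below) were at 255, 264, 270 and 270.3 CPM and the stretched ones at 337, 316, 329 and 340.5 CPM. In differentiated cells at 6 h they were at 247, 263, 265 and 272 CPM without and 371, 377, 399 and 381 CPM with stretching. All 4 stretched libraries thus lay above all 4 non-stretched ones in each stage, by a clear gap. The log2 fold change was 0.32 ± 0.033, adjusted p = 0.000105, in myoblasts and 0.55 ± 0.040, adjusted p = 0.000150, in differentiated cells, where Acly had the 4th smallest p of the 15433 genes tested. At 3 h Acly had risen in differentiated cells, from 252 ± 13.6 to 299.7 ± 11.5 CPM (SD, n = 4 each, 0.25 ± 0.044, adjusted p = 0.00283), again without overlap, while in myoblasts it was at 266 ± 3.43 and 262 ± 4.29 CPM (-0.01 ± 0.023, adjusted p = 0.720). The stretched library of replicate 4 in differentiated cells at 1 h, from an experiment of its own, was at 286 CPM, above the 225 to 244 CPM of the other 3, and the log2 fold change of 0.08 there was 0.00 without it.

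Acss2 (chr2:155517948-155585724, + strand), which makes acetyl-CoA from acetate, was lower at 3 h in stretched myoblasts and showed no other call. The myoblast libraries at 3 h were at 4.82, 5.40, 5.14 and 5.601 CPM without stretching and at 4.29, 4.57, 4.16 and 4.66 CPM with it. The stretched libraries all lay below the non-stretched ones (-0.24 ± 0.074, adjusted p = 0.0243). The call was lost when non-stretched replicate 8 or 10 was left out, or stretched replicate 7 or 9, with adjusted p between 0.0563 and 0.0778. Acss2 had only 216 to 347 counts in a myoblast library. At 6 h, the log2 fold change was -0.04 ± 0.070, adjusted p = 0.754, in myoblasts and 0.02 ± 0.071, adjusted p = 0.902, in differentiated cells, with overlapping groups in both. In differentiated cells at 6 h the 4 stretched libraries, at 17.4, 17.6, 16.6 and 17.03 CPM, sat within the spread of the non-stretched ones, at 15.4, 15.5, 17.8 and 19.2 CPM.

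Fasn (chr11:120805846-120824547, - strand), the fatty acid synthase that makes palmitate, had the largest rise of the 10 in myoblasts at 6 h. There the non-stretched libraries were at 434, 463, 473 and 428 CPM and the stretched ones at 831, 557, 638 and 703 CPM. The groups did not overlap, and stretched replicate 7 stood highest and replicate 8 lowest of the stretched libraries. This was a 1.52-fold rise (0.60 ± 0.096, adjusted p = 0.00117, on the log2 scale), and it was nearly the same within each experiment (0.60 for replicates 7 and 8 and 0.57 for replicates 9 and 10). In differentiated cells at 3 h the non-stretched libraries were at 373, 345, 382 and 389 CPM and the stretched ones at 488, 428, 564 and 529 CPM (0.43 ± 0.075, adjusted p = 0.00262). The 6 h values there were 417, 428, 339 and 395 CPM without and 449, 473, 648 and 484 CPM with stretching (0.38 ± 0.11, adjusted p = 0.0322). The groups did not overlap at either time, but at 6 h the within-experiment log2 difference was 0.12 for replicates 7 and 8 and 0.61 for replicates 9 and 10. The 6 h call was lost without non-stretched replicate 7, 9 or 10, with adjusted p between 0.0531 and 0.0683. At 1 h in myoblasts, stretched replicate 8 reached 599 CPM while the other 3 were between 375 and 463 CPM, and Fasn was not called (0.10 ± 0.12, adjusted p = 0.736).

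Acaca (chr11:84129672-84401651, + strand), the acetyl-CoA carboxylase just before Fasn in the pathway, was not called at any time in either stage. Its log2 fold changes ranged from 0.00 to 0.13, and its lowest adjusted p was 0.233. At 6 h in myoblasts the libraries were at 169, 171, 177 and 173 CPM without and 193, 162, 166 and 192 CPM with stretching (0.05 ± 0.055, adjusted p = 0.545). Those of differentiated cells were at 133, 134, 122 and 139 and 130.5, 133, 169 and 147 CPM (0.13 ± 0.075, adjusted p = 0.240). Some stretched libraries were above all non-stretched ones and others below them in myoblasts, and the groups overlapped in both stages. The count is uncertain, since 33.4% of the 31-base stretches of Acaca also occur in other genes, 31.7% in Gm5182, and the quantifier has to divide such reads.

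Elovl6 (chr3:129532355-129638495, + strand), the elongase that takes palmitate to stearate, rose at 6 h in both stages and had the largest change of the 10 in differentiated cells. At 6 h the myoblast libraries were at 100, 102, 112 and 109 CPM without and 128, 126, 122 and 136 CPM with stretching (0.28 ± 0.044, adjusted p = 0.00116). In differentiated cells they were at 55.5, 55.6, 66.1 and 65.5 CPM and 90.9, 89.05, 96.5 and 90.4 CPM, a 1.51-fold rise (0.59 ± 0.063, adjusted p = 0.000381, on the log2 scale). Neither stage had an overlap between the groups. The non-stretched differentiated libraries of replicates 7 and 8 were lower than those of replicates 9 and 10 at each time, and the rise at 6 h within each experiment was 0.70 and 0.51 on the log2 scale. At 3 h in differentiated cells, Elovl6 was at 48.7, 52.95, 63.5 and 66.5 CPM without and 64.5, 65.4, 66.5 and 74.95 CPM with stretching and was not called (0.23 ± 0.092, adjusted p = 0.105). It was called there with the experiment as a covariate (adjusted p = 0.0111) and without non-stretched replicate 10 (adjusted p = 0.0384). Other genes, mostly Gm11295, hold 6.41% of its 31-base stretches.

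Scd2 (chr19:44293674-44306864, + strand), the more abundant of the stearoyl-CoA desaturases, moved in both directions. In myoblasts at 1 h the non-stretched libraries were at 1060, 1070, 1239 and 1285 CPM and the stretched ones at 917, 931, 977 and 1011 CPM. All stretched libraries lay below the non-stretched ones, by 17.5% in the fit (-0.28 ± 0.062, adjusted p = 0.0240), with a difference of -0.20 for replicates 7 and 8 and -0.34 for replicates 9 and 10. The call was lost without any one of the 4 stretched libraries or without non-stretched replicate 9 or 10, with adjusted p between 0.0520 and 0.0654. By 6 h the order was turned, with non-stretched myoblasts at 1229, 1306, 1345 and 1461 CPM and stretched ones at 1659, 1635, 1691 and 1786 CPM (0.34 ± 0.048, adjusted p = 0.000567). Differentiated cells at 6 h were at 2295, 2326, 2734 and 2753 CPM without and 3177, 3218, 3597 and 3541 CPM with stretching (0.42 ± 0.073, adjusted p = 0.00344). At both stages the 6 h groups were apart, and in absolute terms this was the largest gain in CPM of the 10 genes. At 3 h Scd2 was higher in differentiated cells, at 2340 ± 223 and 2741 ± 196 CPM (0.23 ± 0.073, adjusted p = 0.0449), a call lost when non-stretched replicate 7 or 8 was left out, or stretched replicate 7, 9 or 10 (adjusted p between 0.0630 and 0.112) and with all 24 libraries of the stage in 1 fit (adjusted p = 0.0907). In myoblasts at 3 h it was at 1341 ± 47.9 and 1297 ± 48.2 CPM (-0.04 ± 0.032, adjusted p = 0.361).

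Scd1 (chr19:44394455-44407879, - strand) encodes the other desaturase of this pair and was called lower at 3 h in myoblasts and higher at 6 h in both stages. In myoblasts at 3 h it was lower with stretching, at 360, 349.5, 382 and 377 CPM without and 335, 329, 347 and 351 CPM with it. The groups overlapped by 1 stretched library, replicate 10, which lay above non-stretched replicate 8. The log2 fold change was -0.10 ± 0.032, adjusted p = 0.0277, a call lost when non-stretched replicate 9 or 10 was left out, or stretched replicate 7 or 8 (adjusted p between 0.0705 and 0.0890) and with all 24 libraries in 1 fit (adjusted p = 0.0664). By 6 h the stretched myoblasts, at 385, 374, 386 and 408 CPM, were all above the non-stretched ones, at 335, 340.3, 346 and 356 CPM (0.17 ± 0.033, adjusted p = 0.00295). In differentiated cells at 6 h the values were 867, 874, 922 and 920.4 CPM and 946, 969.6, 1084 and 1076 CPM, without overlap (0.19 ± 0.053, adjusted p = 0.0294). This last call was lost when non-stretched replicate 7 or 8 was left out, or stretched replicate 9 or 10, with adjusted p between 0.0735 and 0.0844. At 1 h in myoblasts Scd1 was at 319.8 ± 25.8 and 289 ± 9.26 CPM and was not called (-0.14 ± 0.052, adjusted p = 0.155), but it was with all 24 libraries of the stage in 1 fit (adjusted p = 0.0328) and with the experiment as a covariate (adjusted p = 0.0279). At 3 h in differentiated cells it missed the threshold (0.10 ± 0.036, adjusted p = 0.0748) but passed it with DESeq2 (adjusted p = 0.0196) and with the experiment as a covariate (adjusted p = 0.0247). Between 6.81% and 8.14% of the 31-base stretches of Scd2 and Scd1 occur in other genes, mostly in Scd3.

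Fads2 (chr19:10062765-10101746, - strand), the delta-6 desaturase, rose at 6 h, while its neighbour on the chromosome, the delta-5 desaturase Fads1 (chr19:10182888-10196877, + strand), was not called at any time. Fads2 in differentiated cells at 6 h was at 66.9, 69.98, 84.8 and 75.4 CPM without and 89.6, 93.8, 93.4 and 94.6 CPM with stretching (0.32 ± 0.065, adjusted p = 0.00636), and the groups did not overlap. In myoblasts at 6 h it was at 70.9, 72.7, 73.4 and 82.2 CPM and 81.1, 79.96, 84.5 and 89.5 CPM (0.17 ± 0.050, adjusted p = 0.0286). Here non-stretched replicate 10 lay among the stretched libraries, and the call was lost when non-stretched replicate 7, 8 or 9 was left out, or stretched replicate 9 or 10 (adjusted p between 0.0619 and 0.0880). At 3 h in myoblasts Fads2 was lower by 5.05%, from 73.5 ± 1.86 to 69.5 ± 1.33 CPM (-0.07 ± 0.027, adjusted p = 0.0471), without overlap. That call was lost when non-stretched replicate 8 or 10 was left out, or stretched replicate 7, 8 or 9 (adjusted p between 0.0751 and 0.140), and with DESeq2 (adjusted p = 0.0607), RLE normalization (adjusted p = 0.0520), no filter on low counts (adjusted p = 0.108) and all 24 libraries in 1 fit (adjusted p = 0.177). In differentiated cells at 3 h it was not called (0.12 ± 0.084, adjusted p = 0.349), but it was with the experiment as a covariate (adjusted p = 0.0338). Fads1 at 6 h was at 126, 134, 129.8 and 140 CPM in non-stretched and 123, 128, 133 and 139 CPM in stretched myoblasts (-0.01 ± 0.043, adjusted p = 0.862). In differentiated cells it was at 107, 107, 123 and 115 and 113, 119, 122 and 125 CPM (0.08 ± 0.052, adjusted p = 0.271). The groups of Fads1 overlapped in all 6 comparisons, and its log2 fold changes lay between -0.07 and 0.08.

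Srebf1 (chr11:60199089-60222581, - strand), which encodes the transcription factor SREBP-1, was not called in any comparison, and its groups overlapped in all 6. At 6 h the myoblast libraries were at 101, 106, 101 and 112 CPM without and 101, 110.2, 99.5 and 105 CPM with stretching (-0.01 ± 0.041, adjusted p = 0.896). Differentiated libraries at 6 h were at 109.5, 115, 128 and 127 CPM and 104, 117, 109 and 118 CPM (-0.10 ± 0.060, adjusted p = 0.277). Over the 6 comparisons its log2 fold changes lay between -0.10 and 0.02. RefSeq gives the gene 3 starts, and a count per gene symbol does not separate the SREBP-1a and SREBP-1c transcripts, nor does it measure the cleavage of the protein.

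**Figure D3:**
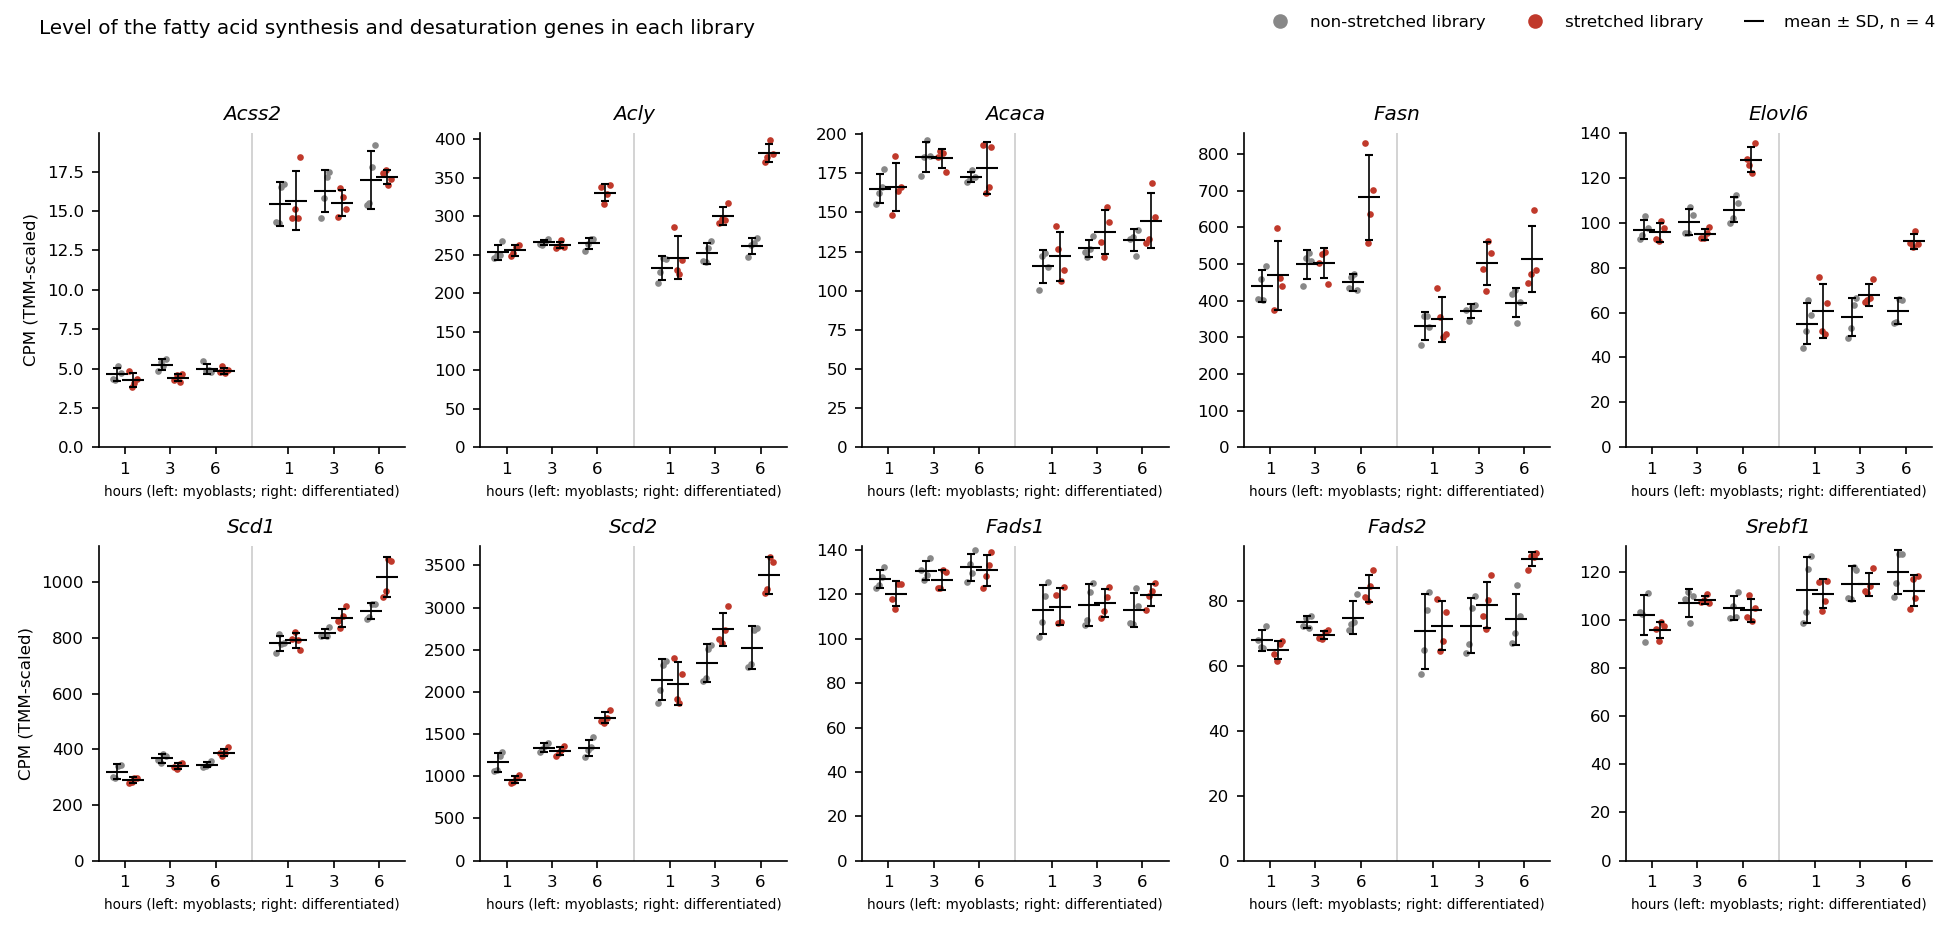
CPM of each gene in each library (points) by hours and stage, with non-stretched libraries in grey, stretched ones in red, and the mean ± SD of 4 libraries in black. The red 6 h points of Acly and Elovl6 lie above all grey points in both stages, for Acly at 371, 377, 399 and 381 CPM in differentiated cells, while those of Fads1 and Srebf1 mix with the grey ones.

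The 6 genes called at 6 h were above the mean of the non-stretched libraries in every stretched library of both stages. Against the mean of the non-stretched libraries of the same time, between 7 and 9 of the 10 genes were higher in each stretched myoblast library at 6 h, with a median log2 difference between 0.11 and 0.25. Between 8 and 9 were higher in each stretched differentiated library at 6 h, with medians between 0.14 and 0.34. At 1 h, between 6 and 9 of the 10 were lower in each stretched myoblast library, with medians between -0.15 and -0.01. Stretched differentiated libraries at 1 h went both ways, with 9 of 10 higher and a median of 0.19 in replicate 4, and 9 of 10 lower and a median of -0.08 in replicate 8. Within the experiments, of replicates 7 and 8 and then of replicates 9 and 10, the 6 h log2 differences in myoblasts were 0.33 and 0.31 for Acly, 0.33 and 0.22 for Elovl6, 0.17 and 0.17 for Scd1, 0.38 and 0.31 for Scd2 and 0.17 and 0.16 for Fads2. In differentiated cells they were 0.55 and 0.54 for Acly, 0.14 and 0.23 for Scd1, 0.47 and 0.38 for Scd2 and 0.42 and 0.23 for Fads2. The calls rest on both experiments together, so that a shared sign is no independent support. Replicate 4 changed no call at 1 h when left out.

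**Figure D4:**
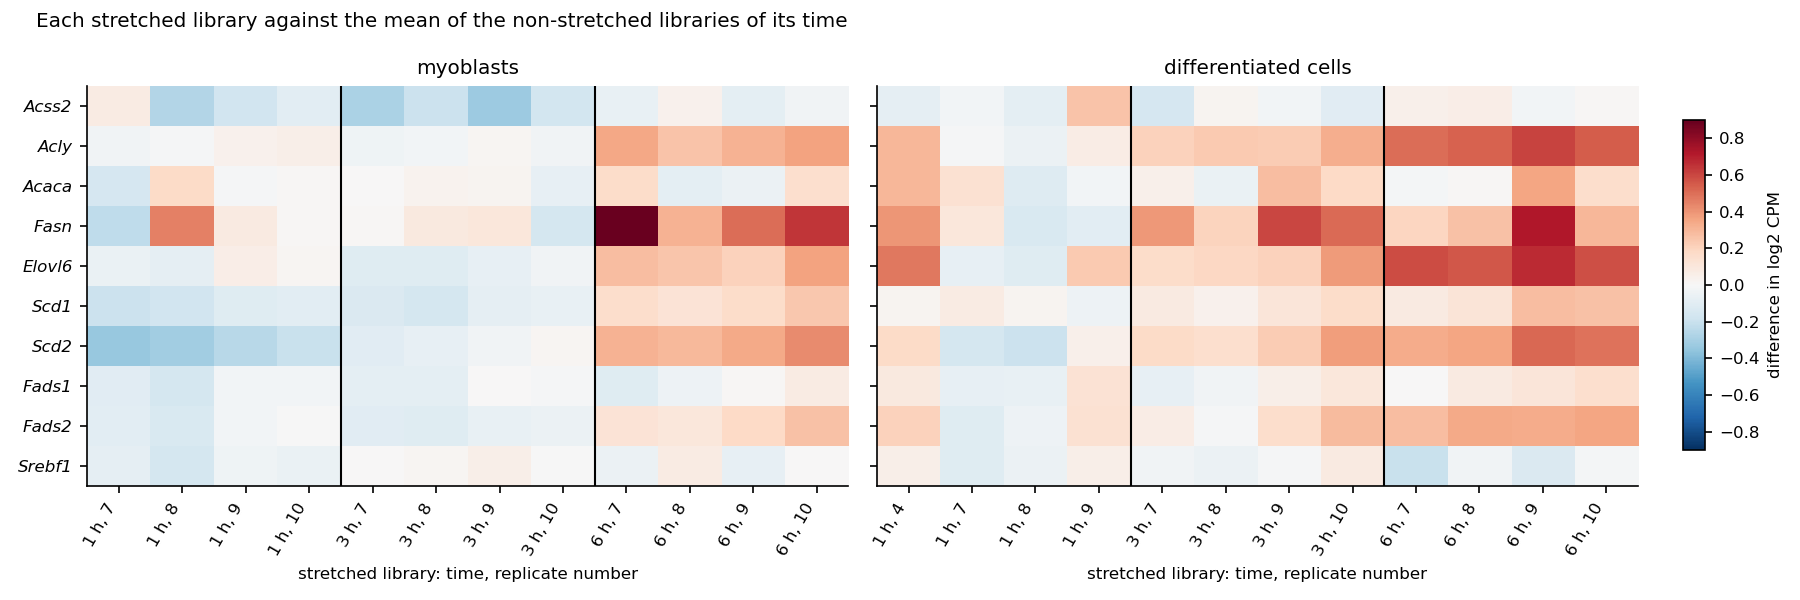
Difference in log2 CPM between each stretched library (columns, by hours and replicate number) and the mean of the 4 non-stretched libraries of its time, for each gene (rows), with red for higher and blue for lower. The 4 columns at 6 h are red for Acly, Fasn, Elovl6, Scd1, Scd2 and Fads2 in both stages, and the columns at 1 h in myoblasts are blue for Scd1 and Scd2.

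Whether the effect of stretching differed between 6 h and 1 h was tested as an interaction over the 24 libraries of a stage. In myoblasts 6 of the 10 genes differed, all with the larger value at 6 h, where 21.1% of all genes differed in either direction. The largest difference was that of Scd2 (0.62 ± 0.078, adjusted p = 3.86e-06, on the log2 scale), which had fallen at 1 h. Fasn (0.51 ± 0.16, adjusted p = 0.0229), Scd1 (0.32 ± 0.061, adjusted p = 0.000549), Acly (0.31 ± 0.041, adjusted p = 1.10e-05), Elovl6 (0.29 ± 0.062, adjusted p = 0.00152) and Fads2 (0.23 ± 0.061, adjusted p = 0.00813) followed. The call of Fasn was lost without 1 h non-stretched replicate 10, 1 h stretched replicate 7 or 6 h stretched replicate 7 (adjusted p between 0.0534 and 0.0647).

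In differentiated cells the effects of Acly (0.47 ± 0.086, adjusted p = 0.00104) and Scd2 (0.45 ± 0.13, adjusted p = 0.0241) differed between 6 h and 1 h, 2 of the 10 beside 11.9% of all genes. Elovl6 missed the threshold (0.46 ± 0.17, adjusted p = 0.0838), and without the 1 h stretched library of replicate 4 it passed (0.58, adjusted p = 0.0142), as it did without 1 h non-stretched replicate 7 (adjusted p = 0.0374). Scd2 was lost without 1 h non-stretched replicate 9 or 10, 1 h stretched replicate 7 or 8, 6 h non-stretched replicate 7 or 8 or 6 h stretched replicate 9 (adjusted p between 0.0531 and 0.0580). Scd1 was not called (0.17 ± 0.062, adjusted p = 0.0857) but passed without 6 h stretched replicate 7 (adjusted p = 0.0400). With DESeq2, Scd1 (adjusted p = 0.0453) and Elovl6 (adjusted p = 0.0489) were called in addition.

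The effect of stretching was then compared between the stages at each time, as differentiated minus myoblast, over 16 libraries. At 1 h, 0 of the 10 differed, as did 0 of the 16299 genes tested (0%) with edgeR, beside 705 at an unadjusted p under 0.05 and 16 called by DESeq2. At 3 h, the effects of Acly (0.26 ± 0.049, adjusted p = 0.0103) and Scd1 (0.19 ± 0.046, adjusted p = 0.0388) were higher in differentiated cells, 2 of the 10 where 1.79% of all genes differed. Fasn just missed the threshold (0.41 ± 0.11, adjusted p = 0.0578) and passed it with RLE normalization (adjusted p = 0.0451), with DESeq2 (adjusted p = 0.00413), without a filter on low counts (adjusted p = 0.0163), and without myoblast non-stretched replicate 7 (adjusted p = 0.0399) or differentiated stretched replicate 8 (adjusted p = 0.00816). DESeq2 also called Scd2 (adjusted p = 0.0274). Among the fits that left out 1 library, Scd1 stayed past the threshold without myoblast non-stretched replicate 8, differentiated non-stretched replicate 10 or differentiated stretched replicate 8 or 9, and was lost without any of the remaining 12 libraries (adjusted p between 0.0560 and 0.113) and without a filter on low counts (adjusted p = 0.0878).

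At 6 h, Acly (0.22 ± 0.050, adjusted p = 0.0214) and Elovl6 (0.31 ± 0.080, adjusted p = 0.0329) rose more in differentiated cells, 2 of the 10 beside 5.18% of all genes. Elovl6 was lost without myoblast non-stretched replicate 9 or 10 or stretched replicate 9, or without differentiated non-stretched replicate 7 or 8 or stretched replicate 9 (adjusted p between 0.0504 and 0.0719). The difference for Fasn was -0.23 ± 0.16, adjusted p = 0.465, so that its larger rise in myoblasts was not separated from that in differentiated cells. For Scd1 (0.00 ± 0.061, adjusted p = 0.993) and Scd2 (0.07 ± 0.091, adjusted p = 0.745) the differences were near 0, with SE of 0.061 and 0.091 on the log2 scale.

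The 10 genes varied together to unequal degrees over the 24 libraries of a stage, which share the times, the stretching and the experiments, so that these correlations are descriptions only. Across the myoblast libraries, Scd1 and Scd2 had a Pearson r of 0.959 and Acly and Elovl6 one of 0.919, while Srebf1 and Elovl6 had 0.031. In differentiated cells Scd2 and Acly had an r of 0.95 and Scd2 and Elovl6 one of 0.929. With the mean of all 10 standardized levels, of which each is a part, Scd2 had the highest r in both stages (0.97 and 0.965) and Srebf1 the lowest (0.494 and 0.55). Outside the 10, the genes of at least 100 mean counts most like that mean in myoblasts were Lss (r = 0.925), Xdh, Stard4, Scrn1 and Ahnak2. The corresponding genes in differentiated cells were Nsdhl (r = 0.931), Lipg, Idh1, Pmvk and Fdps. Lss, Nsdhl, Pmvk and Fdps encode enzymes of cholesterol synthesis, and Stard4 a protein that carries cholesterol. Idh1 encodes the cytosolic isocitrate dehydrogenase, a source of NADPH.

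Of the further genes of fatty acid synthesis and elongation (20 listed, 17 or 18 tested at a time), 0, 4 and 3 were higher in myoblasts at 1, 3 and 6 h, and 0, 5 and 4 in differentiated cells, with 0 lower. Of all genes tested, the shares called higher were 1.67%, 16% and 14.1% in myoblasts and 0.193%, 10.8% and 11.5% in differentiated cells, and with a list this short nothing is read from the counts. Fads3, a desaturase relative beside Fads1 and Fads2, was higher at 3 h in myoblasts (0.11 ± 0.028, adjusted p = 0.00696) and in differentiated cells (0.23 ± 0.031, adjusted p = 0.000876). Hsd17b12, which carries out a reduction step of elongation, was higher in differentiated cells at 6 h (0.32 ± 0.036, adjusted p = 0.000458), and Hacd3, a dehydratase of elongation, at 6 h in both stages (0.15 ± 0.034, adjusted p = 0.00750, and 0.21 ± 0.032, adjusted p = 0.00199).

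Among the sterol genes, those called at 1 h in myoblasts were lower and those called at 6 h in both stages were higher. Of the 22 genes of sterol synthesis and uptake, 6 were lower at 1 h in myoblasts, 9 higher and 1 lower at 3 h, and 20 higher and 0 lower at 6 h. In differentiated cells 0 were called at 1 h, with a median log2 fold change of 0.01, 17 were higher at 3 h and 20 at 6 h, with 0 lower. Over all genes tested, 1.67%, 16% and 14.1% were higher and 4.24%, 15.8% and 13% lower in myoblasts at 1, 3 and 6 h. In differentiated cells the shares were 0.193%, 10.8% and 11.5% higher and 0.47%, 11.4% and 10.8% lower. The median log2 fold change of the sterol genes at 6 h was 0.43 in myoblasts and 0.51 in differentiated cells. The number of sterol genes past both limits was 3 and 6, beside 2.17% and 2.04% of all genes. Among them, Idi1, the isomerase that makes dimethylallyl diphosphate, rose at 6 h in myoblasts (0.55 ± 0.033, adjusted p = 6.92e-06) and in differentiated cells (0.77 ± 0.061, adjusted p = 0.000150). Hmgcs1, which makes the HMG-CoA of the mevalonate pathway, was lower at 1 h in myoblasts (-0.33 ± 0.049, adjusted p = 0.00254).

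Among 7 genes of SREBP processing, Insig1, a membrane protein that retains SREBPs in the endoplasmic reticulum and is itself an SREBP target, rose most. Its log2 fold change was 0.46 ± 0.055, adjusted p = 4.59e-05, at 3 h and 0.73 ± 0.048, adjusted p = 8.36e-06, at 6 h in myoblasts, and 1.02 ± 0.11, adjusted p = 0.000237, at 3 h and 0.57 ± 0.087, adjusted p = 0.00194, at 6 h in differentiated cells. Srebf2, which encodes SREBP-2, was higher at 3 h in both stages, by little (0.08 ± 0.024, adjusted p = 0.0258, and 0.15 ± 0.033, adjusted p = 0.00864). Mbtps2, the protease that releases SREBPs from the membrane, was lower at 6 h in both stages (-0.17 ± 0.039, adjusted p = 0.00780, and -0.21 ± 0.050, adjusted p = 0.0147). In all, 0, 2 and 1 of the 7 were higher and 0, 1 and 2 lower in myoblasts at 1, 3 and 6 h, and 0, 3 and 1 higher and 0, 2 and 1 lower in differentiated cells. In each direction, 10.8% to 16% of all genes were called at 3 h and 6 h, and 0.193% to 4.24% at 1 h. With a list this short, nothing is read from these counts.

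The liver X receptors, also known to act on Srebf1, Scd1 and Fasn, were represented by a list of 11 with their targets and the factors of the ChREBP system, of which 10 were tested. In myoblasts 0, 0 and 2 were higher and 1, 1 and 0 lower at 1, 3 and 6 h, and in differentiated cells 0, 0 and 1 higher and 1, 3 and 2 lower. Of all genes, 10.8% to 16% were called in a given direction at 3 h and 6 h, and 0.193% to 4.24% at 1 h. With a list this short, nothing is read from these counts. Mylip, a liver X receptor target that marks the LDL receptor for degradation, was lower at 1 h in myoblasts (-0.85 ± 0.089, adjusted p = 0.000245) and in differentiated cells (-0.75 ± 0.061, adjusted p = 0.00185). Mlx, the partner of ChREBP, was higher at 6 h in myoblasts (0.38 ± 0.038, adjusted p = 0.000103) and in differentiated cells (0.22 ± 0.039, adjusted p = 0.00371).

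For genes that activate, store or burn fatty acids, the counts are given beside the shares of all genes, which were 1.67%, 16% and 14.1% higher and 4.24%, 15.8% and 13% lower in myoblasts, and 0.193%, 10.8% and 11.5% higher and 0.47%, 11.4% and 10.8% lower in differentiated cells. With lists this short, nothing is read from these counts. Of 15 genes of fatty acid oxidation, all tested, 0, 0 and 2 were higher and 0, 3 and 0 lower in myoblasts at 1, 3 and 6 h, and 0, 0 and 0 were higher and 0, 3 and 2 lower in differentiated cells. Cpt2, a carnitine palmitoyltransferase of the mitochondrial inner membrane, was lower at 3 h in both stages (-0.32 ± 0.041, adjusted p = 8.92e-05, and -0.23 ± 0.041, adjusted p = 0.00329). Among the 7 acyl-CoA synthetases tested of 9, 0, 2 and 1 were higher and 1, 3 and 1 lower in myoblasts, and 0, 1 and 2 higher and 0, 0 and 3 lower in differentiated cells. Of 13 genes of glycerolipid synthesis, 12 were tested, with 1, 4 and 4 higher and 1, 1 and 0 lower in myoblasts and 0, 1 and 1 higher and 0, 1 and 1 lower in differentiated cells. Lpin1, a phosphatidate phosphatase, was lower at 1 h (-0.63 ± 0.099, adjusted p = 0.00325) and higher at 6 h (0.60 ± 0.072, adjusted p = 0.000271) in myoblasts, as Scd2 was.

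**Figure D5:**
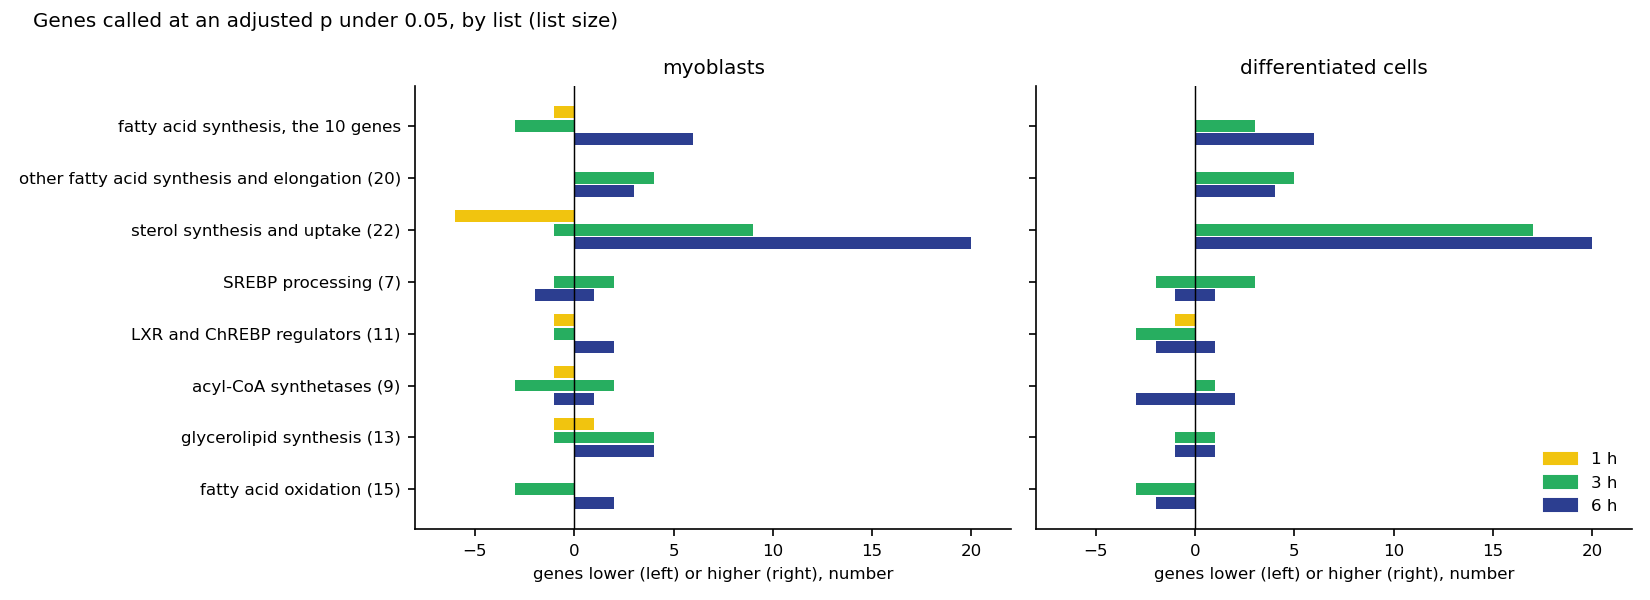
Number of genes called at an adjusted p under 0.05 as higher (bars to the right) or lower (bars to the left) with stretching, for each list of lipid genes (list size in brackets) at 1 h (yellow), 3 h (green) and 6 h (blue), in myoblasts and differentiated cells. The 6 h bars reach 6 of the 10 fatty acid synthesis genes and 20 of the 22 sterol genes in both stages, and at 1 h those of myoblasts point to the left for both. Over all genes tested, 14.1% were higher at 6 h in myoblasts and 11.5% in differentiated cells, and 4.24% were lower at 1 h in myoblasts.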

How the data were processed

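RNA from stretched and non-stretched C2C12 cells was sequenced in 48 libraries. The labels name the molecule as nuclear RNA, whereas the study's methods describe RNA taken from cells with a column kit and no isolation of nuclei, so whether levels are those of whole cells or of nuclei is not settled by these sources. Per the study's methods, the authors prepared stranded mRNA libraries, used STAR to align read pairs to mm10 and Salmon for quantification, and deposited raw whole-number counts per gene symbol, in a table for each stage. Salmon divides reads shared between genes, so counts of genes with near-identical copies are less certain. All 48 columns were used (0 left out).

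The 10 genes and the other gene lists were chosen with earlier results of these data known. Low counts were filtered by filterByExpr, libraries scaled with TMM, and the 8 libraries of a time compared with the two-sided quasi-likelihood test of edgeR 4.0.16 (R 4.3.3), with Benjamini-Hochberg adjustment over all genes tested. The study itself used DESeq2, here an alternative (1.42.0). Interactions of stretching with time used the 24 libraries of a stage, and those with stage the 16 libraries of a time, joined by symbol, as did the stage difference (24 non-stretched libraries, time as a covariate). Values after ± are the SD of a group for CPM and the SE of the fit for log2 fold changes. The SE was derived from the fold change and its F statistic.

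CPM values use TMM-scaled library sizes of the 24 libraries of a stage, and log2 CPM a prior count of 1. Levels per length use the principal transcript of GENCODE vM21, whose symbols match 45213 (95.2%) of those counted. The tests were checked on simulated counts. Besides all 10 genes, at most 3 called genes per list and comparison, those of smallest adjusted p, and the 5 genes per stage most like the 10 are named. Cebpa, and the adipocyte and muscle markers, are named in addition as checks of cell type. Replicate numbers were not taken to pair libraries (the check is given with the sensitivity of the results). The stretched myoblast library of replicate 9 at 1 h has an experiment code of its own in its label and was taken with replicates 9 and 10, as its count column has it.

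The alternatives were the DESeq2 Wald test, RLE factors, a fit of every gene with a count, a minimum of 10 counts per library, a joint fit over the 24 libraries of a stage, terms for the experiment or (as a block) for the replicate number, the omission of each library, each time alone for the stage difference, the limit of 0.58 on the log2 fold change and a test against it (glmTreat). The libraries held 48447318 to 77080730 counts, and the number of libraries limits the precision of the tests.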

Additional observations from a re-analysis of the deposited data

Results flagged for a closer look

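Of 120 groups of 4 libraries tested for a value far from the others (Dixon's test, which by chance marks about 5 in 100), 2 held one, both for Acss2, the least abundant of the genes. Non-stretched replicate 7 of myoblasts at 6 h was at 5.46 CPM, with the other 3 between 4.79 and 4.88 CPM. Stretched replicate 9 of differentiated cells at 1 h was at 18.4 CPM, with the other 3 between 14.5 and 15.1 CPM. Acss2 was not called in either comparison.

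The effect of stretching differed between times or stages by an interaction test of edgeR for 12 results, here as log2 differences ± SE. Between 6 h and 1 h in myoblasts these were Acly (0.31 ± 0.041, adjusted p = 1.10e-05), Fasn (0.51 ± 0.16, adjusted p = 0.0229), Scd1 (0.32 ± 0.061, adjusted p = 0.000549), Scd2 (0.62 ± 0.078, adjusted p = 3.86e-06), Elovl6 (0.29 ± 0.062, adjusted p = 0.00152) and Fads2 (0.23 ± 0.061, adjusted p = 0.00813). For differentiated cells they were Acly (0.47 ± 0.086, adjusted p = 0.00104) and Scd2 (0.45 ± 0.13, adjusted p = 0.0241). Between the stages, differentiated minus myoblast, they were Acly (0.26 ± 0.049, adjusted p = 0.0103) and Scd1 (0.19 ± 0.046, adjusted p = 0.0388) at 3 h, and Acly (0.22 ± 0.050, adjusted p = 0.0214) and Elovl6 (0.31 ± 0.080, adjusted p = 0.0329) at 6 h. Each was larger at 6 h or in differentiated cells. The part of the experiment in the differences between stages cannot be told apart from that of the stage.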

How the results depend on the processing

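No call of the 10 genes changed direction under any setting. Over the fits that left out 1 library, the counts at 6 h were between 5 and 6 in myoblasts and between 4 and 6 in differentiated cells. The limit of 0.58 on the log2 fold change left 0 of 1 genes in myoblasts at 1 h, 0 of 3 at 3 h and 1 of 6 at 6 h. In differentiated cells it left 0 of 3 at 3 h and 1 of 6 at 6 h, and the test against that limit left 0 in each of these. Over all genes tested, the test against the limit called 16, 3 and 4 in myoblasts at 1, 3 and 6 h. In differentiated cells it called 1 at 3 h and 0 at 6 h, so nothing is read from its 0 for these genes. With all 24 libraries of a stage in 1 fit, 2 of the 10 were called in myoblasts at 1 h and 1 at 3 h. Over all genes that fit called 1440 in place of 884 at 1 h and 4068 in place of 4719 at 3 h. With the experiment as a covariate, 2 of the 10 were called in myoblasts at 1 h and 6 in differentiated cells at 3 h. Calls over all genes were then 1025 in place of 884 and 4361 in place of 3443. DESeq2 called 4 of the 10 in place of 2 for the difference between 6 h and 1 h in differentiated cells, and 4 in place of 2 for the difference between stages at 3 h. Its calls over all genes were 2254 in place of 1928 and 520 in place of 291. Leaving out 1 library gave 0 to 1 of the 10 in myoblasts at 1 h, 0 to 3 at 3 h and 2 to 4 in differentiated cells at 3 h. It gave 1 to 3 for the difference between 6 h and 1 h in differentiated cells, and 1 to 3 and 1 to 2 for the difference between stages at 3 h and 6 h. Except where a fit had fewer libraries or a fold limit, the cause was not tested.

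Stretched and non-stretched libraries of one replicate number correlated in their deviations between -0.044 and 0.153 over 23 pairs, 6 of them over 0.1, and in no comparison did every pair pass 0.1 or every library correlate best with its own number. With the replicate number as a block, 6 in place of 3 genes were called in differentiated cells at 3 h, 4 in place of 2 for the difference between 6 h and 1 h in these cells, and 5 in place of 2 for the difference between stages at 3 h. Over all genes the block called 3580 in place of 3443, 3117 in place of 1928 and 352 in place of 291, in the same order. Fasn in differentiated cells at 6 h (adjusted p = 0.0879) and Fads2 in myoblasts at 3 h (adjusted p = 0.0659) lost their calls under the block. Counts of Acss2 limit its precision, and a p that misses the threshold does not show that levels were equal.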
